A study of Mus musculus with 6 samples.

Results

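The transcription machinery at the end of the Hippo pathway was examined in RNA of infarcted mouse left ventricles, as 8 genes chosen by name from the 17556 genes of the deposited table. They were the floxed coactivator genes *Yap1* and *Wwtr1* (the gene of Taz), the DNA binding factors *Tead1*, *Tead2*, *Tead3* and *Tead4*, and the cofactors *Vgll3* and *Vgll4*. All 6 mice carried floxed Yap on both alleles and floxed Wwtr1 on a single allele, underwent permanent ligation of the left anterior descending artery at 6 to 10 weeks of age, and received a tamoxifen citrate diet from surgery until collection at 4 days post injury (dpi). The 3 Cre positive mice also carried MerCreMer, a Cre that tamoxifen activates, under the endogenous Periostin promoter, and the 3 Cre negative siblings had wildtype Periostin. The controls lack MerCreMer, so an effect of the driver and an effect of depletion cannot be told apart. The driver is active in myofibroblasts, whereas the RNA came from all cells of the ventricle, in which fewer cells of a type and less RNA per cell cannot be told apart.

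Yap and Taz do not bind DNA themselves. When the Hippo kinases are inactive they enter the nucleus, bind one of the TEAD factors and switch on genes of growth, adhesion and matrix. Vgll proteins bind TEAD factors in place of Yap and Taz, Vgll4 being known as a competitor that represses Yap activity, and in the heart the pathway is known for its part in growth of the fetal myocardium and in activation of fibroblasts after injury.

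TEAD factors recognize the sequence CATTCC, which reads GGAATG on the other strand. Promoter windows from RefSeq on GRCm38.p6, reaching from 250 bases before to 50 bases after a transcription start, were matched to 6 of the 8 genes, and *Tead1* and *Tead4* had no match. At least 1 copy on either strand was present for 5 of these 6 genes (*Yap1*, *Wwtr1*, *Tead3*, *Vgll3* and *Vgll4*) and absent for *Tead2*, while 16.6% of the 27025 genes in the same windows, and 14.7% of 32851 windows, held one. The stretches around these copies are shown because the promoters of both floxed genes and of both Vgll genes share the motif, which is given in capitals, 5′ to 3′ along each gene's own strand. RefSeq lists several starts for *Wwtr1* and *Tead3*, and each distance is to the start named with it. The starts used for *Yap1*, *Wwtr1*, *Tead3* and *Vgll4* lie inside the gene spans given further on, and for *Vgll4* and *Tead3* the stretches themselves do. The start of *Vgll4* was not matched to a transcript of the GENCODE set. *Tead3* had a copy 182 bases before another start and a copy just after the start used, neither of which is shown. A match describes these letters and was not tested as a binding site, and the windows of these genes are also rich in G and C, between 61.3% and 75.3% against a median of 52.7% over all windows.
*Yap1*, chr9:8004685-8004784, minus strand, motif 141 bases before the start at 8004596: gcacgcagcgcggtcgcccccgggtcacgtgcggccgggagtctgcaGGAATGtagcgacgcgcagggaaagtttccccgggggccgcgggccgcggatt
*Wwtr1*, chr3:57575994-57576093, minus strand, motif 170 bases before the start at 57575876 and 136 before that at 57575910: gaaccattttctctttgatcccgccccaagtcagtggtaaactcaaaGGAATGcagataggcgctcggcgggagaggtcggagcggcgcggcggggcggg
*Tead3*, chr17:28350662-28350770, minus strand, motifs 123 and 114 bases before the start at 28350600: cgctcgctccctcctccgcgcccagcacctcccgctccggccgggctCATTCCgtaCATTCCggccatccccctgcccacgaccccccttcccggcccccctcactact
*Vgll3*, chr16:65815079-65815178, plus strand, motif 63 bases before the start at 65815189: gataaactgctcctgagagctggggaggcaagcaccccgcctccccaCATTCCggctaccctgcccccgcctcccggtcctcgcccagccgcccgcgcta
*Vgll4*, chr6:114969233-114969332, minus strand, motif 82 bases before the start at 114969203: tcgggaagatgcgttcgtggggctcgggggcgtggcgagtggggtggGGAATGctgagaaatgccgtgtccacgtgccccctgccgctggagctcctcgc

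The deposited estimated counts summed to between 13177888 and 14827579 per ventricle. Cre negative replicate 1 stood apart from the other 5 ventricles, with a mean chi-square of 44.5 to 68.8 over the genes against each of them (1 is the value for counting error alone), whereas the other pairs gave 8.13 to 17.2. It had the highest summed TPM (a share of all transcripts, corrected for transcript length) of 10 cardiomyocyte markers, 42265 against 30879 to 36280 elsewhere, and the lowest of 10 fibroblast and myofibroblast markers, 5320 against 8369 to 9797. Its neutrophil markers were the highest, 426 TPM against 54.5 to 165 elsewhere, and its macrophage markers the lowest, 3092 against 4024 to 4975 TPM. Without it the log2 fold changes (Cre positive over Cre negative) were 0.06 for *Yap1*, 0.07 for *Wwtr1*, 0.16 for *Tead1*, −0.22 for *Tead2*, 0.13 for *Tead3*, 0.07 for *Tead4*, 0.23 for *Vgll3* and 0.04 for *Vgll4*, none with an adjusted p under 0.05 by edgeR. All 10 cardiomyocyte markers were detected in every ventricle, which does not by itself tell a left ventricle from another part of the heart. *Postn*, the locus of the driver, had normalized counts of 12157, 24639 and 26862 in the Cre negative and 12682, 14240 and 13486 in the Cre positive ventricles, so the groups overlapped through Cre negative replicate 1 (log2 fold change −0.66, standard error 0.27, adjusted p = 0.714 by edgeR). Without that ventricle *Postn*, which is also a fibroblast and myofibroblast marker, was lower in the Cre positive ventricles at −0.94 (adjusted p = 0.0182 by edgeR), while its adjusted p lay between 0.552 and 0.958 under the other alternatives. The list as a whole had 8 of 10 markers above 0 (median log2 fold change 0.21), and 7 of 10 without that ventricle (median 0.08).

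The 8 genes were read at very different levels. *Yap1* had the highest level, 47.2 ± 2.69 TPM (SD, n = 6 ventricles), followed by *Wwtr1* with 43.2 ± 3.26 TPM and *Tead1* with 40.6 ± 3.79 TPM. *Vgll4* with 26.1 ± 4.03, *Tead3* with 25.5 ± 3.09 and *Tead2* with 20.8 ± 4.90 TPM formed a middle group. *Vgll3* reached 9.27 ± 2.13 TPM and *Tead4* 1.90 ± 0.30 TPM, a level below that of 12304 of the 13817 genes tested. *Tead1* is the TEAD factor best known from heart muscle promoters, *Tead4* from the early embryo and from skeletal muscle.

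Neighbours in this order were compared within each ventricle on the log2 TPM scale by an exact two-sided sign-flip permutation test over the 6 ventricles, adjusted over the 7 pairs. The order came from the mean TPM of the same ventricles, so the test describes agreement between ventricles. With any 1 ventricle left out, no pair had an exact p under 0.0625 by this test. *Yap1* was above *Wwtr1* in 6 of 6 ventricles by 1.09-fold, and *Wwtr1* above *Tead1* in 6 of 6 by 1.07-fold. *Tead1* was above *Vgll4* by 1.57-fold, *Tead3* above *Tead2* by 1.26-fold, *Tead2* above *Vgll3* by 2.23-fold and *Vgll3* above *Tead4* by 4.81-fold, each in 6 of 6 ventricles (for these 6 pairs exact p = 0.031, the smallest that 6 ventricles allow, and adjusted p = 0.0365). *Vgll4* and *Tead3* did not differ beyond their spread, with *Vgll4* higher in 5 of 6 ventricles by 1.02-fold (exact p = 0.625, adjusted p = 0.625). The step from *Wwtr1* to *Tead1* did not pass when normalized counts were divided by a length that was the same in every ventricle (adjusted p = 0.146 by the same exact test).

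**Figure D1:**
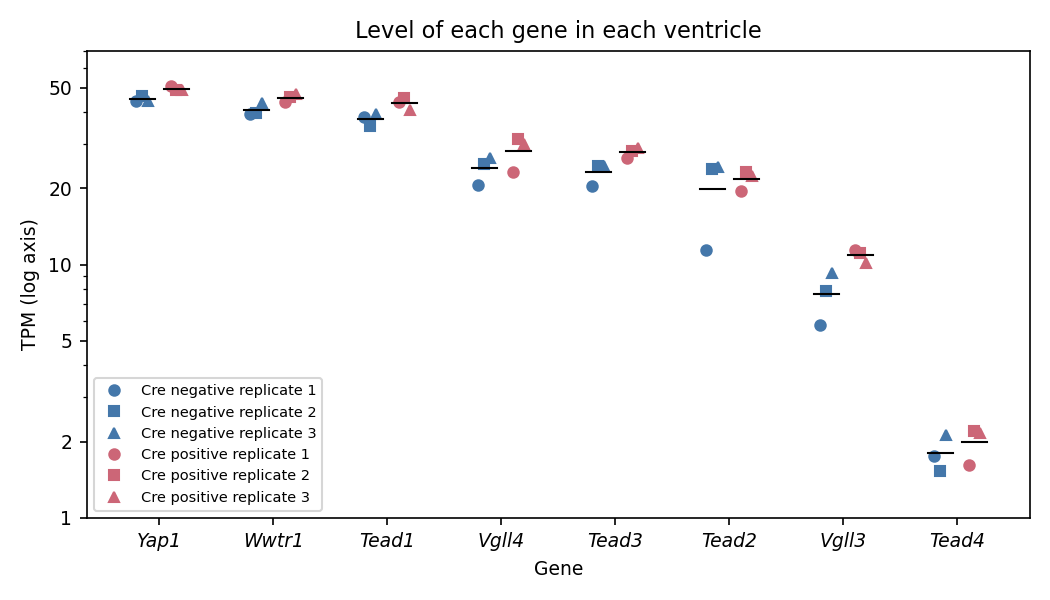
TPM (log axis) of each gene in each ventricle, ordered by mean level, with Cre negative ventricles in blue, Cre positive ventricles in red, marker shapes for replicate numbers and black lines for group means. *Yap1*, *Wwtr1* and *Tead1* lie between 35.4 and 50.7 TPM in every ventricle, and Cre negative replicate 1 is the lowest point of *Tead2* (11.4 TPM) and of *Vgll3* (5.80 TPM).

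The question of the genotype comparison is what the depletion changes in the injured ventricle, beginning with the floxed genes themselves. None of the 8 genes passed edgeR's quasi-likelihood test at an adjusted p of 0.05, which 1 of the 13817 genes tested passed (0.00724%), *Gbp2b*, an interferon-induced guanylate-binding protein gene that is named here after its values were seen. *Vgll3* alone had an unadjusted p under 0.05, on the higher side, where 2.85% of all genes tested had one. On the lower side none of the 8 had one, against 2.98% of all genes, and DESeq2's Wald test gave none of the 8 an adjusted p under 0.05. All 8 passed the filter on low counts. Their log2 fold changes (Cre positive over Cre negative) were all above 0, as were 51.2% of those of all genes tested, with a median of 0.07 against 0.006 for all genes.

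*Yap1* (gene number 22601, chromosome 9 from 7931999 to 8004638, minus strand, on GRCm38.p6) encodes the coactivator that is floxed on both alleles. It had 1316, 1502 and 1461 counts in the Cre negative and 1623, 1556 and 1510 in the Cre positive ventricles. After scaling for library size and composition these became 1547, 1473 and 1419 against 1615, 1436 and 1474 normalized counts. The groups overlapped, the highest value being that of Cre positive replicate 1 and the lowest that of Cre negative replicate 3. The means were 1480 ± 64.3 and 1508 ± 94.3 normalized counts (SD, n = 3 each), a log2 fold change of 0.03 with a 95% interval from −0.17 to 0.23 (adjusted p = 0.935 by edgeR), so that the lower limit stands for a fall of 11.3%. The coefficient of variation between siblings of a genotype was 4.35% and 6.25%, where counting error alone gives 2.59%. The sign changed when Cre positive replicate 1 (−0.02) or Cre negative replicate 3 (−0.001) was left out.

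*Wwtr1* (gene number 97064, chromosome 3 from 57455644 to 57575910, minus strand) encodes Taz, the relative of Yap that is floxed on a single allele. Its counts were 1375, 1491 and 1652 in the Cre negative and 1622, 1689 and 1701 in the Cre positive ventricles. As normalized counts these were 1616, 1463 and 1604 against 1614, 1559 and 1661, and the groups overlapped nearly throughout, only Cre positive replicate 3 lying above all siblings. This gave a log2 fold change of 0.05 with a 95% interval from −0.15 to 0.24 (adjusted p = 0.876 by edgeR), with a fall of 9.75% at the lower limit. The value was 0.001 without Cre negative replicate 2, 0.02 without Cre positive replicate 3 and 0.07 without Cre positive replicate 2. Which part of each gene is floxed is not given in the sources used here, and a gene's count takes reads from its whole transcript, so transcripts that lack only the floxed part would still be counted. A fall in *Yap1* or *Wwtr1* was thus not detectable in the RNA of the whole ventricle, which does not show that none took place in myofibroblasts.

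**Figure D2:**
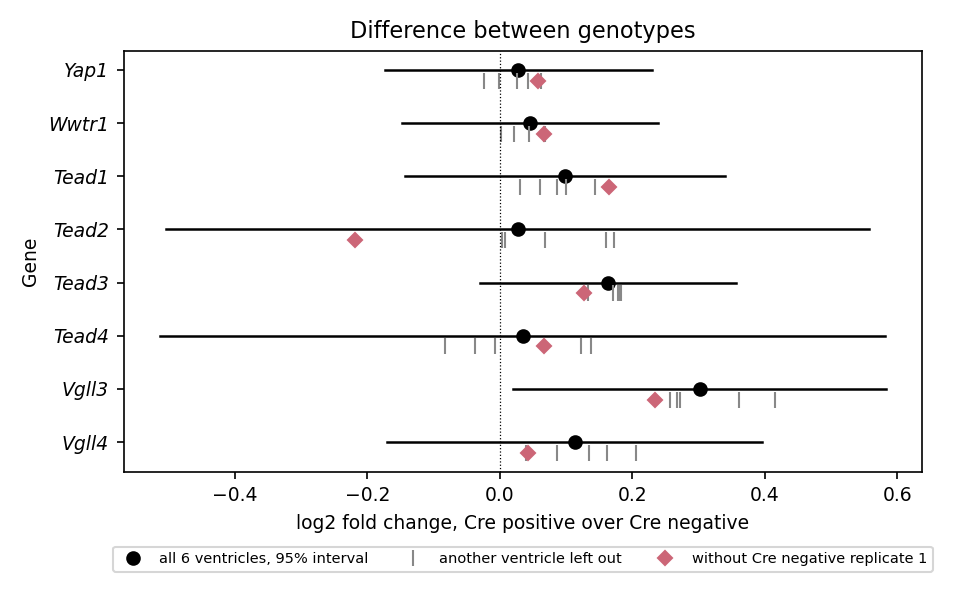
Log2 fold change (Cre positive over Cre negative) of each gene with its 95% interval from edgeR over all 6 ventricles (black), with the values obtained when 1 ventricle was left out (grey ticks, and a red diamond for Cre negative replicate 1). The interval of *Vgll3*, from 0.02 to 0.58, is the only one that does not include 0, before adjustment over all genes, and *Tead2* moves to −0.22 without Cre negative replicate 1.

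The genes whose profile over the 6 ventricles was most like that of *Yap1*, among 10797 with a mean of at least 100 normalized counts, were *Tmem185a* (Pearson's r = 0.99), *Mst1r*, which encodes a receptor tyrosine kinase (r = 0.97), and *Epdr1* (r = 0.97). For *Wwtr1* they were *Tirap*, an adaptor of Toll-like receptors (r = 0.99), *Tent5c* (r = 0.98) and *Dusp5*, an ERK phosphatase (r = 0.97). Spearman's rho was 1 for all 6. These values describe 6 libraries only, since they are the highest of 10797, and 71 genes had r of at least 0.9 with *Yap1* and 33 with *Wwtr1*.

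Among the DNA binding factors, *Tead3* (gene number 21678, chromosome 17 from 28331671 to 28350805, minus strand) was the only member whose groups did not overlap in normalized counts. It had 447, 480 and 478 in the Cre negative and 518, 510 and 545 in the Cre positive ventricles, each Cre positive ventricle lying above every sibling. This gave a log2 fold change of 0.16 with a 95% interval from −0.03 to 0.36 (adjusted p = 0.714 by edgeR, exact permutation p = 0.1, the smallest that 3 against 3 allow). Over all genes tested, 7.55% were higher without overlap on this scale, and 1 of the 8 members was, while 6.85% of all genes and none of the 8 were lower without overlap. Its log2 fold change stayed between 0.13 and 0.18 whichever ventricle was left out.

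*Tead1* (gene number 21676, chromosome 7 from 112679356 to 112906784) gave the most reads of the 8 genes, with 18264 counts over the 6 ventricles. Its normalized counts were 3218, 2656 and 2943 in the Cre negative and 3306, 3192 and 2938 in the Cre positive ventricles, and Cre positive replicate 3 lay below 2 of the siblings. Its log2 fold change was 0.10 with a 95% interval from −0.14 to 0.34 (adjusted p = 0.785 by edgeR). It was 0.03 without Cre negative replicate 2, 0.06 without Cre positive replicate 1 and 0.16 without Cre negative replicate 1.

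*Tead2* (gene number 21677, chromosome 7 from 45215792 to 45233468, plus strand), known from the embryo and from proliferating cells, differed most between siblings of a genotype. It had 205, 384 and 388 normalized counts in the Cre negative and 313, 343 and 341 in the Cre positive ventricles. Cre negative replicate 1 held far less than its siblings, and the Cre positive values lay between it and them. The coefficient of variation was 32.2% in the Cre negative and 4.97% in the Cre positive ventricles, where counting error gives 5.48%. The log2 fold change was 0.03 with a 95% interval from −0.50 to 0.56 (adjusted p = 0.978 by edgeR). It turned to −0.22 without that ventricle (adjusted p = 0.762 by edgeR), when all Cre positive values lay below both remaining siblings. The share of all genes that separate in this way among the remaining ventricles was not computed. In Cre negative replicate 1 the fibroblast and myofibroblast markers (on log2 TPM, −0.67 against the mean of the 6 ventricles) and the smooth muscle and pericyte markers (−0.79) were low together with *Tead2* (−0.87), and their part in its value was not tested.

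*Tead4* (gene number 21679, chromosome 6 from 128227143 to 128300813) had between 37 and 51 counts per ventricle, so that counting error alone gives a coefficient of variation of 15%, and 14.8% and 13.3% were observed. Its normalized counts were 45.8, 36.3 and 48.6 against 37.8, 47.1 and 48.8, which overlapped fully. The log2 fold change was 0.03 with a 95% interval from −0.51 to 0.58 (adjusted p = 0.974 by edgeR), whose lower limit, a fall of 29.9%, shows how little could be resolved at this depth.

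Of the Vgll cofactors, *Vgll3* (gene number 73569, chromosome 16 from 65815189 to 65866368, plus strand), a mechanosensitive gene known from fibroblasts, showed the largest difference among the 8 genes. Its counts were 304, 376 and 466 in the Cre negative and 510, 546 and 453 in the Cre positive ventricles. The normalized counts were 357, 369 and 453 against 508, 504 and 442, so Cre positive replicate 3 lay just under Cre negative replicate 3 and the groups overlapped. Its log2 fold change was 0.30 (1.23-fold) with a 95% interval from 0.02 to 0.58 (unadjusted p = 0.0386, adjusted p = 0.714 by edgeR). It was above 0 under every alternative run, between 0.23 (without Cre negative replicate 1) and 0.42 (without Cre negative replicate 3) when a ventricle was left out, with adjusted p between 0.509 and 0.958 over all settings. The unadjusted p was above 0.05 with DESeq2 (0.0532), with a replicate block (0.0544) and without Cre negative replicate 1 (0.0829), Cre negative replicate 2 (0.114), Cre positive replicate 1 (0.107) or Cre positive replicate 2 (0.105), all but the first by edgeR.

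On the TPM scale the same gene separated the genotypes, with 5.80, 7.90 and 9.28 TPM in the Cre negative and 11.4, 11.1 and 10.1 TPM in the Cre positive ventricles. The transcript length that the deposited counts and FPKM imply differed between ventricles for *Vgll3*, with 6991, 5890 and 6174 bases in the Cre negative and 5626, 6210 and 5799 bases in the Cre positive ventricles. The longest was that of Cre negative replicate 1 and the groups overlapped. The longest was 1.24 times the shortest, a ratio reached by 0.259% of 6556 genes with at least 300 counts and an FPKM of at least 3 in every ventricle, whose median ratio was 1.01. Such lengths weight the annotated transcripts by how many reads each was given. For the other 7 genes the ratio was between 1.001 (*Wwtr1*) and 1.047 (*Vgll4*), with *Yap1* at 1.019.

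**Figure D3:**
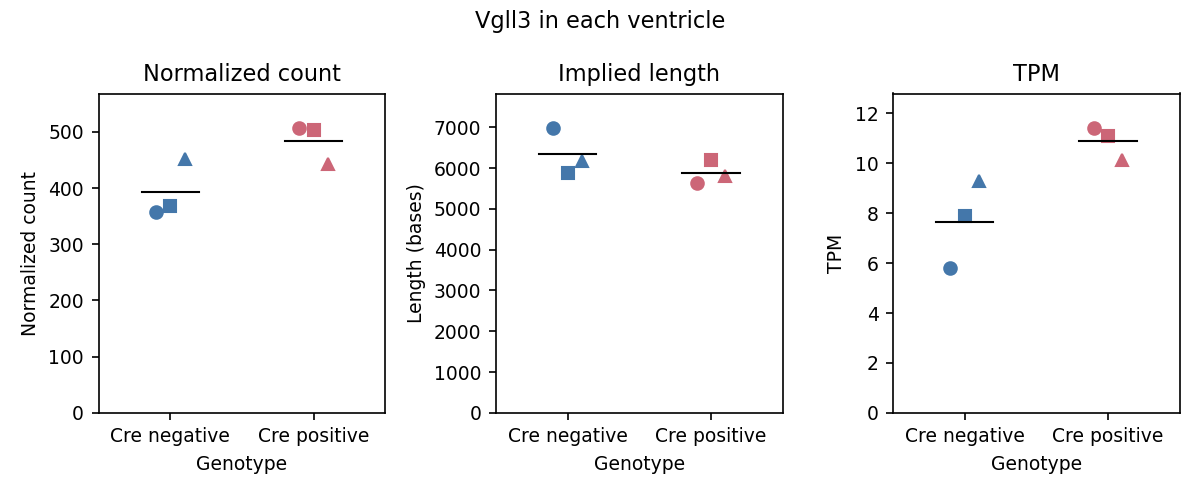
*Vgll3* in each ventricle as normalized counts (left), as the transcript length implied by its count and FPKM in bases (middle) and as TPM (right), with Cre negative in blue, Cre positive in red, marker shapes for replicate numbers, lines for group means and all axes starting at 0. The TPM values separate the genotypes, while the normalized counts overlap and the implied length runs from 5626 to 6991 bases.

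*Vgll4* (gene number 232334, chromosome 6 from 114860621 to 114970007, minus strand) had 354, 403 and 418 normalized counts in the Cre negative and 367, 465 and 438 in the Cre positive ventricles. Replicate 1 was the lowest of each genotype, and the groups overlapped through Cre positive replicate 1. The log2 fold change was 0.11 with a 95% interval from −0.17 to 0.40 (adjusted p = 0.788 by edgeR). It ran from 0.04 without Cre positive replicate 2 or Cre negative replicate 1 to 0.21 without Cre positive replicate 1. Of the other Vgll genes, *Vgll1* was not analysed here, and *Vgll2*, a cofactor of skeletal muscle named here after its values were seen, had 2, 1 and 1 counts in the Cre negative and 8, 7 and 2 in the Cre positive ventricles and was too low to be tested.

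On the TPM scale the groups no longer overlapped for 4 of the 7 genes that had overlapped in normalized counts (*Yap1*, *Wwtr1*, *Tead1* and *Vgll3*). In TPM, *Yap1*, *Wwtr1*, *Tead1*, *Tead3* and *Vgll3* were higher in each Cre positive ventricle than in every sibling, 5 of 8 genes, where 15% of all genes tested were, and none was lower without overlap, where 2.44% were. *Yap1* had 44.2, 46.3 and 44.4 TPM against 50.7, 49.0 and 48.9, and *Wwtr1* 39.3, 39.6 and 43.6 against 43.9, 45.8 and 47.4. The median of all genes itself lay at 0.11 on the log2(TPM + 1) scale. Relative to that shift *Yap1* was higher by 0.03, *Wwtr1* by 0.05, *Tead3* by 0.15 and *Vgll3* by 0.37. *Tead4* lay at −0.01 relative to it, but at 0.01 relative to the median on log2(TPM + 0.1). None of the 8 passed with limma on log2(TPM + 1) (smallest adjusted p = 0.59). The summed cardiomyocyte markers lay at 35874 to 42265 TPM in the Cre negative and 30879 to 35086 TPM in the Cre positive ventricles, with 0 of 10 markers having a log2 fold change above 0 (median −0.31), or 2 of 10 without Cre negative replicate 1 (median −0.13), and their part in the shift was not tested.

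Ratios of TPM within a ventricle do not depend on that shift. The ratio of *Wwtr1* to *Yap1* was 0.889, 0.855 and 0.981 in the Cre negative and 0.866, 0.934 and 0.969 in the Cre positive ventricles, nearly the same range in both. Together the coactivators reached 1.16, 1.01 and 0.977 times the summed level of the 4 TEAD factors in the Cre negative and 1.03, 0.954 and 1.02 times in the Cre positive ventricles, so coactivator and TEAD messages were present at about equal levels. *Vgll3* and *Vgll4* together had 0.317, 0.383 and 0.405 times the level of the coactivators in the Cre negative and 0.366, 0.447 and 0.416 times in the Cre positive ventricles. For the 7 such ratios the exact two-sided permutation test gave p between 0.3 and 1 (adjusted p = 1 for each), where 3 against 3 cannot go below 0.1. No ratio could therefore have passed 0.05, and the groups overlapped in each.

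Within the TEAD factors, *Tead1* made up 46.1% ± 6.28 of the summed level in the Cre negative and 45.8% ± 2.32 in the Cre positive ventricles (SD, n = 3 each). *Tead3* followed with 28.1% ± 0.849 and 29.3% ± 1.2, *Tead2* with 23.6% ± 6.73 and 22.8% ± 1.25 and *Tead4* with 2.2% ± 0.354 and 2.09% ± 0.284. The share of *Tead3* was the steadiest of the larger shares, between 27.2% and 30.7% in all ventricles. In Cre negative replicate 1, *Tead1* stood at 53.2% of the sum and *Tead2* at 15.85%, against 41.5% to 47.9% and 21.4% to 28.0% in the other 5 ventricles. Without that ventricle the share of *Tead2* was lower in each Cre positive ventricle than in both siblings (difference −4.64 percentage points, exact permutation p = 0.1, the smallest that 2 against 3 allow), and that of *Tead1* differed by 3.25 percentage points (exact permutation p = 0.3).

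**Figure D4:**
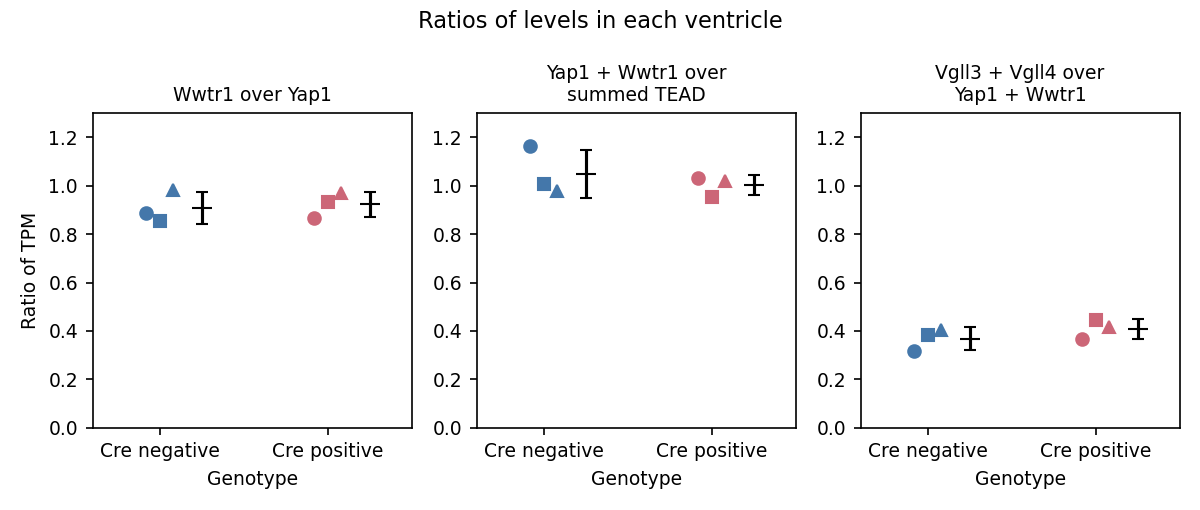
Ratios of TPM in each ventricle (points, with marker shapes for replicate numbers) and group mean ± SD (black bars, n = 3) for *Wwtr1* over *Yap1*, both coactivators over the summed TEAD factors, and both Vgll cofactors over both coactivators. The genotypes overlap in each panel, and the middle ratio lies between 0.954 and 1.16.

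The rest of the pathway was described from 3 lists. Of 23 Hippo kinases and regulators, all were tested and 0 passed edgeR's test in either direction at an adjusted p of 0.05, with 2 higher and 1 lower at an unadjusted p under 0.05 (2.85% and 2.98% of all genes tested) and 0 by DESeq2. Their median log2 fold change was 0.15 against 0.006 for all genes, 0.11 without Cre negative replicate 1 and 0.07 without Cre positive replicate 2. The highest was *Wwc1*, a scaffold of the Lats kinases, with 9.40, 4.90 and 2.91 against 14.9, 10.2 and 9.76 normalized counts (log2 fold change 1.03, 95% interval −0.16 to 2.23, and 0.71 to 1.54 when a ventricle was left out). At the other end was *Limd1*, which encodes a LIM protein that binds Lats, with 1400, 962 and 1199 against 873, 1019 and 912 (−0.34, 95% interval −0.68 to −0.01, and −0.21 with an unadjusted p of 0.094 without Cre negative replicate 1). *Wwc1*, with 3 to 8 counts in the Cre negative and 10 to 15 in the Cre positive ventricles, passed the filter on low counts only through the group in which it was higher, so its place as an extreme is a description. Both had an adjusted p of 0.714 by edgeR.

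Of 22 Yap and Taz target genes, 21 were tested and 0 passed (3 at an unadjusted p under 0.05, all higher, where 2.85% of all genes were, and 0 by DESeq2), with a median of 0.10 against 0.006 for all genes, and 0.12 without Cre negative replicate 1. The highest was *Tgfb2*, a ligand of the TGF-beta family, with 565, 786 and 872 normalized counts in the Cre negative and 1137, 962 and 997 in the Cre positive ventricles (0.48, 95% interval 0.10 to 0.85, adjusted p = 0.714 by edgeR, and 0.31 without Cre negative replicate 1). The lowest was *F3*, the tissue factor of coagulation (−0.28, −0.67 to 0.11, adjusted p = 0.714, and −0.16 without that ventricle). The groups did not overlap for *Tgfb2*, which was named because it was the highest of its list, and overlapped for *F3*. In normalized counts 7.55% of all genes tested were higher without overlap. Of 16 other transcription partners, 13 were tested and 0 passed (0 at an unadjusted p under 0.05 and 0 by DESeq2), with a median of 0.12, and 0.07 without Cre negative replicate 1. Their extremes were the zinc finger factor *Klf5* (0.53, 95% interval −0.72 to 1.78, adjusted p = 0.778 by edgeR), at no more than 20.9 normalized counts per ventricle, and the cardiac T-box factor *Tbx5* (−0.38, −1.10 to 0.35, adjusted p = 0.737). *Klf5* ran from 0.17 without Cre negative replicate 3 to 0.95 without Cre negative replicate 1. *Tbx5* ran from −0.66 without Cre positive replicate 1 to −0.12 without Cre negative replicate 1 or Cre positive replicate 2.

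The 8 genes were set beside markers of the cell types of the ventricle. Of these lists, in summed TPM, the cardiomyocyte markers were lower and the endothelial markers higher in every Cre positive ventricle than in any sibling. The endothelial sums were 470 to 559 against 568 to 636 TPM. Of all single genes tested, 2.44% were lower and 15% higher without overlap in TPM. In normalized counts the endothelial markers had a median log2 fold change of 0.04, with 5 of 7 above 0, and of 0.009 without Cre negative replicate 1. Fibroblast and myofibroblast markers (5320 to 9014 against 8786 to 9797 TPM), smooth muscle and pericyte markers (359 to 678 against 622 to 755 TPM), macrophage markers (3092 to 4975 against 4024 to 4710 TPM) and neutrophil markers (54.5 to 426 against 74.3 to 165 TPM) overlapped. Lymphocyte markers lay between 4.81 and 48.0 TPM and erythrocyte markers between 10592 and 20478 TPM, both overlapping. Atrial markers were 16600 TPM in Cre positive replicate 1 and 6881 to 9833 TPM elsewhere, and the groups overlapped. No marker of any list was at 0 in a ventricle. The part of these differences in the values of the 8 genes was not tested.

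**Figure D5:**
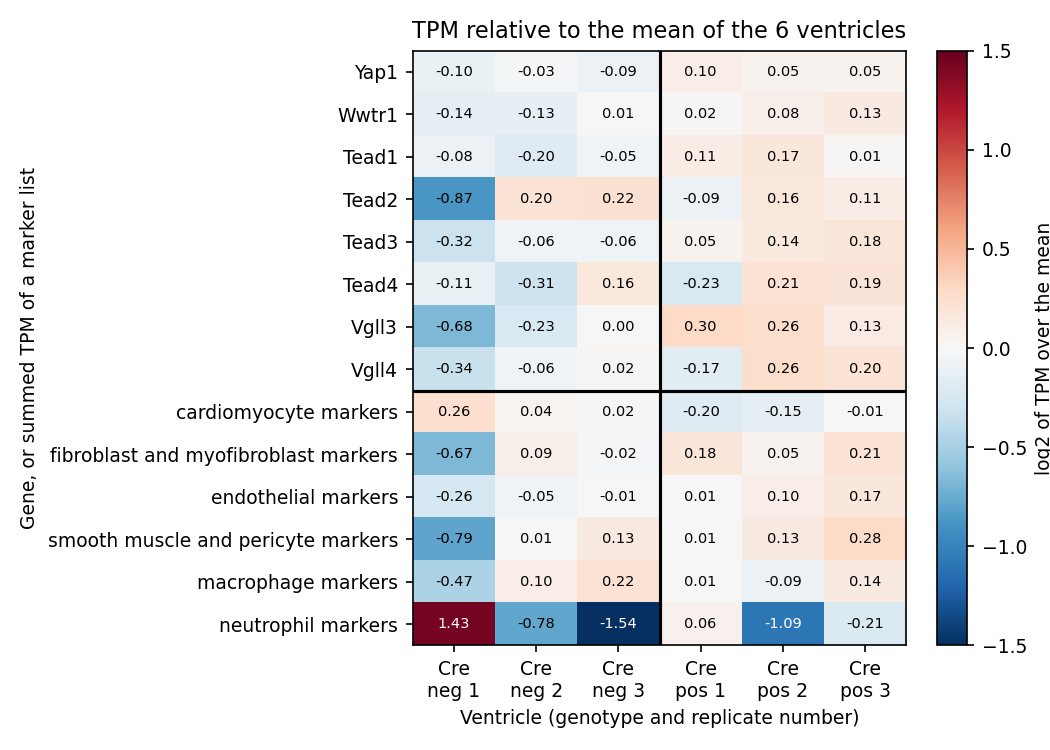
Log2 of TPM over the mean of the 6 ventricles for each gene (top) and for the summed TPM of 6 marker lists (bottom), with Cre negative ventricles left and Cre positive ventricles right of the vertical line. Cre negative replicate 1 is lowest in *Tead2* (−0.87), *Vgll3* (−0.68) and the fibroblast and myofibroblast markers (−0.67) and highest in the neutrophil (1.43) and cardiomyocyte (0.26) markers, while *Yap1* stays between −0.10 and 0.10 in every ventricle.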

How the data were processed

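Total RNA of 6 left ventricles was extracted with TRIzol, and libraries were prepared by BGI Americas. The submitters' processing notes name Bowtie2 2.2.5, RSEM 1.2.12 and GRCm38.p6, and filters and annotation are not given in the sources used here. The authors deposited estimated counts (not normalized, 11.46% of them not whole), FPKM (scaled for transcript length and depth) and TPM (scaled to the same sum in every ventricle). All 48 counts of the 8 genes were whole within 0.001. The authors' own DESeq2 fold changes, p-values and q-values were not used.

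Counts were rounded and compared in R 4.3.3 with edgeR 4.0.16 (TMM and the quasi-likelihood test with genotype as the only term, after filterByExpr at its settings of 10 for min.count and 15 for min.total.count), with Benjamini-Hochberg adjustment over 13817 genes. Normalized counts are TMM-scaled to the mean library of 14264187 counts. On simulated counts of these 13817 genes, 66 of 100 genes with a 2-fold change and 12 of 100 with a 1.5-fold change passed, as did 7 of 13617 that had none. A count of 0 would allow up to 3 counts, 0.202 to 0.228 CPM, for counting error only. Levels between genes were compared in TPM. Alternatives used limma 3.58.1 and DESeq2 1.42.0, with scipy 1.17.1 and matplotlib 3.10.9 in Python 3.11.15. Positions and promoter windows are from RefSeq tables on GRCm38.p6, in which 17443 of 17556 gene numbers were found.

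The 8 genes and all lists were chosen with earlier results of these data known. Genes were named by rule: the 8 members, *Postn*, the extremes of each pathway list, any pathway gene past the threshold, and the 3 genes most like *Yap1* and *Wwtr1* in profile. Siblings are separate mice per the labels, but litters are not given.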

Additional observations from a re-analysis of the deposited data

How the results depend on the processing

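Alternatives were run for normalization, filter, test, scale and each ventricle. The 8 genes had no adjusted p under 0.05 in any of them. Signs changed for *Yap1* without Cre positive replicate 1 (−0.024) and without Cre negative replicate 3 (−0.001), for *Tead2* without Cre negative replicate 1 (−0.219), and for *Tead4* without Cre negative replicate 2 (−0.083), Cre positive replicate 2 (−0.008) or Cre positive replicate 3 (−0.037). With 1 ventricle left out at a time, *Yap1* ranged from −0.024 to 0.061, *Tead2* from −0.219 to 0.172, *Tead4* from −0.083 to 0.138, *Wwtr1* from 0.001 to 0.068, *Tead1* from 0.03 to 0.164 and *Vgll4* from 0.039 to 0.205, and *Tead4* was not tested under a mean of at least 50 counts. Over all genes, 1 passed an adjusted p of 0.05 by edgeR (806 at an unadjusted p under 0.05), 5 passed with DESeq2's Wald test, 2 with limma on log2(TPM + 1) and 2 on log2(TPM + 0.1), and from 0 to 2 passed when a ventricle was left out, with 0 without Cre negative replicate 3, Cre positive replicate 1 or Cre positive replicate 3 (1346, 556 and 513 genes at an unadjusted p under 0.05) 2 without Cre negative replicate 1 (*Gbp2b* and *Postn*) and *Rpl34-ps1* in place of *Gbp2b* (adjusted p = 0.0602) without Cre positive replicate 2. With a replicate block 0 passed (1217 at an unadjusted p under 0.05). Ventricles with the same replicate number had correlations of their deviations of 0.342, 0.058 and −0.031. Those with different numbers had −0.36 to 0.343, so these values do not show whether the numbers pair the ventricles. The block changed no call of the 8 genes. List medians were 0.23 (Hippo kinases), 0.22 (targets) and 0.22 (other partners) on log2(TPM + 1), and 0.25, 0.25 and 0.26 on log2(TPM + 0.1), where the medians of all genes were 0.11 and 0.12, and the Hippo kinase median ranged from 0.066 to 0.172 when a ventricle was left out, its lowest without Cre positive replicate 2. The step from *Wwtr1* to *Tead1* was 0.094 with a fixed length (exact p = 0.125). Between the genotypes the *Tead2* and *Tead1* shares of the TEAD sum differed by −0.77 and −0.32 percentage points, and by −4.64 and 3.25 without Cre negative replicate 1. Why these values moved was not tested. At the depth of *Tead4*, counting error limits what can be seen.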
